A study of Caenorhabditis elegans with 6 samples.

Results

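The comparison described here set embryos without the histone methyltransferases MET-2 and SET-25 against wild-type embryos of Caenorhabditis elegans, gene by gene and along the genome. Its members were all features with enough counts in the 2 met-2 set-25 and the 2 wild-type libraries to be tested, which came to 13951 of the 20182 genes and 108036 of the 200566 windows of 500 bp in the deposited count tables. The series holds 6 libraries of ribosome-depleted total RNA from early embryos, 2 for each of 3 strains. The wild-type strain was GW1, the double mutant GW638 carried deletions of both met-2 and set-25, and the strain GW828 carried a deletion of cec-4. Per the labels' protocols, each strain was grown synchronously from L1 larvae in liquid culture at 20 °C for 60 to 65 h, with the exact time depending on the strain, and embryos were freed from gravid adults with hypochlorite. No treatment was given to any group. The 2 replicates of a genotype came from independent cultures of 1 strain, so the spread between them is that between cultures and not between independently made lines. The cec-4 libraries entered the fit so that all genotypes shared an estimate of the spread, and their values are given beside those of the double mutant.

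Methylation of histone H3 at lysine 9 (H3K9) marks silent chromatin, or heterochromatin. In C. elegans embryos MET-2, related to SETDB1 of mammals, places mono- and dimethyl groups on this residue, and SET-25 places the third. The mark lies mostly over repeats and silent genes in the outer parts, or arms, of the autosomes, which sit against the nuclear envelope, where the chromodomain protein CEC-4 binds it. Worms without both enzymes lack detectable H3K9 methylation in embryos and are viable.

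Library totals lay between 30171874 and 45677214 counts over genes and between 63512536 and 92014755 over windows. The content of the windows was uneven. The last windows of chromosome I took 19.3% and 35.3% of window counts in wild-type and 31.3% and 9.93% in met-2 set-25. Mitochondrial windows took 15.6% and 9.41%, and 11.9% and 17.4%. The part of this content in the window calls was not tested. The 2 wild-type cultures differed from each other beyond sampling noise. Summed body muscle markers stood at 1057 and 1924 CPM (counts scaled to TMM-adjusted library size) in wild-type and at 1078 and 1299.7 in met-2 set-25, with 1122 and 2023 in cec-4, all 8 markers being detected in every library. Epidermis markers stood at 944 and 1404 CPM in wild-type and at 952 and 999 in met-2 set-25, with 1055 and 1449 in cec-4. The wild-type values thus enclosed those of the mutant for both tissues, replicate 2 was the higher culture in all 3 genotypes, and the part of culture or stage in small shifts of tissue genes was not tested. Markers of other sources were nearly absent, with 12 to 34 counts a library over 6 vitellogenin genes of the adult intestine and 64 to 110 counts over 35 sperm genes. Because embryos were measured in bulk, more cells with RNA of a gene and more RNA per cell cannot be told apart. The counts are of RNA present, and RNA made in the embryo was not told apart from maternal RNA.

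The deleted genes were read along their length first. Over the whole of met-2 (III 8375300 to 8380848, WBcel235, coding counts), 400 and 357 CPM in the wild-type libraries stood against 80.3 and 72.0 in the double mutant. Transcripts of set-25 (III 13283824 to 13293090) went from 113 and 95.3 CPM to 28.4 and 23.1. Both genes fell, by 2.31 and 2.02 on the log2 scale (SE 0.167 and 0.192, edgeR adjusted p = 0.00204 and 0.00466). The remaining reads were not spread evenly. In met-2, the windows at 8376501 to 8377000 and 8377001 to 8377500 held 0.301% and 0% of the wild-type level. They had 2368 and 1927 counts, and 56 and 56, in the wild-type libraries, against 7 and 2, and 0 and 0, in the mutant. The window next to them, at 8376001 to 8376500, held 8.24%, and the other called windows of the gene held 20.9% to 33.5%. In set-25, the 3 windows from 13287501 to 13289000 held 0%, 0.0768% and 0%, with 0 or 1 mutant count in any library where wild-type had up to 850. Nearer the chromosome end, 4 tested windows of set-25 from 13289001 to 13291500 held 20.2% to 45.2%. On the other side of the empty stretch, the windows at 13285501 to 13286500 stood at 131% and 139% of wild-type and did not pass. Genes on the opposite strand, among them the syntaxin gene unc-64, overlap set-25 in the annotation, and whether the counting used strand was not given in the sources used here. Each gene thus held a stretch with almost no reads between parts that still gave reads.

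**Figure D1:**
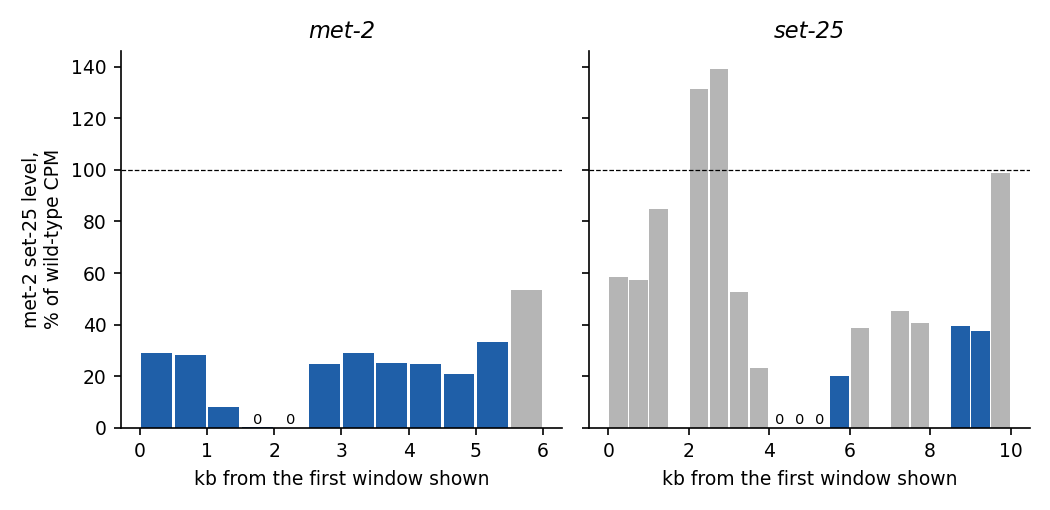
Level in met-2 set-25 as a percentage of the mean wild-type CPM in each 500 bp window along met-2 and set-25, in the direction of increasing coordinates, with blue bars for windows lower at an adjusted p under 0.05, grey bars for others, and a dashed line at equal levels. Windows marked 0 had under 1% of wild-type; positions with no bar had under 30 wild-type counts in the 2 libraries together or were not tested.

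Nearly all genes that passed the test were higher in the double mutant. Of 13951 genes tested, 92 rose in met-2 set-25, or 0.659% of them, and 4 fell, or 0.0287% (edgeR quasi-likelihood test, adjusted p under 0.05). The 4 include met-2 and set-25 themselves. In the fit with the replicate number as a block, 183 genes rose (1.31%) and 8 fell (0.0573%). At an unadjusted p under 0.05, 652 genes lay higher and 145 lower. The median log2 fold change of all genes was -0.03, and 45.9% of them were above 0. All 92 genes had both mutant libraries above both wild-type libraries. The 92 were chosen by a test on these same libraries, so this separation and the least fold change follow largely from the choice. By the fitted fold change every one of the 92 changed by 2-fold or more, 70 by 4-fold, 27 by 8-fold and 11 by 16-fold. These counts include rnh-1.1, which had 0 counts in both wild-type libraries. Its mean CPM gives only a bound of at least 6.66-fold. Without met-2 set-25 replicate 1 the number of higher genes was 9, without met-2 set-25 replicate 2 it was 10, and without wild-type replicate 2 it was 60. The number of lower genes was 1 without either mutant library and 15 without wild-type replicate 2. The genes mihp-1, srw-85, E01G4.5, F28F8.7, F40D4.13, F55C9.3, Y102A5C.36 and Y73B3A.13 were higher in each of these fits and in all other alternatives run. In the annotation 12 of the 92 overlap a gene on the opposite strand, among them F28F8.7, prde-1, clec-126, C33C12.4, F55C9.5, Y102A5C.2, Y54G2A.36, W05H12.2 and dhcr-7, so their reads may be mixed with those of that gene.

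**Figure D2:**
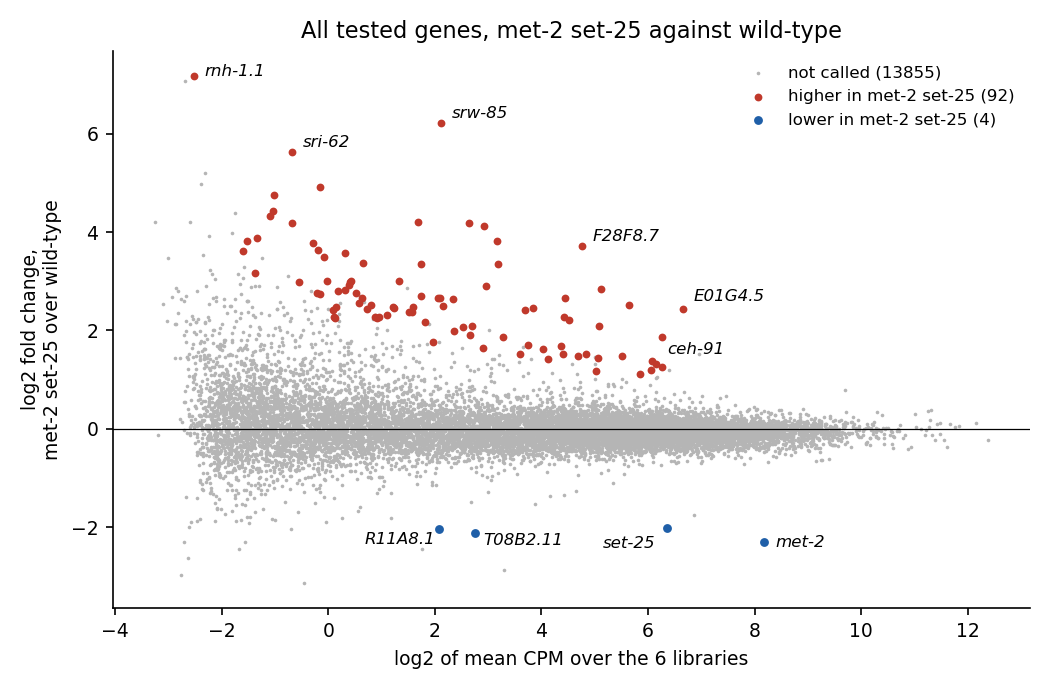
Log2 fold change of each of 13951 tested genes, met-2 set-25 over wild-type, against the log2 of its mean CPM over the 6 libraries, with higher genes in red (92), lower genes in blue (4) and others in grey. Higher genes lie mostly at low mean levels, and the 4 lower genes include met-2 and set-25.

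The genes that rose had low levels in wild-type embryos compared with other genes. Their median level was 1.1 CPM per kb of coding length in wild-type, against 16.2 over all genes tested, and 7.29 CPM per kb in met-2 set-25, against 15.9. In the wild-type libraries 41 and 44 of the 92 genes lay under 1 CPM, and in each mutant library 4 did. Together the 92 genes took 658 and 597 CPM in wild-type and 684 and 643 in cec-4. In the double mutant they took 2288 and 2330 CPM. The sums of wild-type and cec-4 overlapped, and both mutant sums lay above all 4 of them. The same libraries were used to choose the 92 genes, so the gap between the mutant and wild-type sums follows from the choice. By level over all 6 libraries, the share of genes called higher was greatest at 1 to 2 CPM, with 19 of 1049 (1.81%), and smallest above 100 CPM, with 1 of 2748 (0.0364%). Below 0.5 CPM it was 8 of 1644 (0.487%), where few counts limit the test. In that lowest class the median log2 fold change was 0.19, against -0.05 above 100 CPM, while for cec-4 against the same wild-type libraries the values were -0.10 and 0.05. In gene structure the 92 resembled the rest, with a median coding length of 1105.5 bp against 1131 bp and a median of 6 annotated exons against 7.

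Most genes of largest fold change lay under 1 CPM in wild-type, and some of them ended near 1 CPM in the double mutant. Genes with almost no reads in wild-type and cec-4, such as sri-62 and Y49E10.25, passed the count filter only through the mutant libraries. Such genes could be found only as higher. The chemoreceptor gene srw-85 (V 19429387 to 19431136) stood at 0.109 and 0.0955 CPM in wild-type and at 7.98 and 7.84 in met-2 set-25. It was also high in the cec-4 libraries, at 3.54 and 6.31 CPM, below both mutant values. Its log2 fold change was 6.22 over wild-type (SE 0.475, edgeR adjusted p = 0.00204). A second chemoreceptor gene, sri-62 (II 2696939 to 2698478), had 1 and 2 counts in wild-type and 53 and 79 in the double mutant, with 0 in both cec-4 libraries. Here the cec-4 libraries did not share the increase, and the log2 difference between met-2 set-25 and wild-type was 5.63 (SE 0.580, adjusted p = 0.0134). Counts for mihp-1 (I 13402448 to 13404106) were 38 and 43 in wild-type and 506 and 695 in the mutant, or 0.832 and 1.03 against 16.8 and 17.1 CPM. That is an 18.2-fold difference (log2 fold change 4.18, SE 0.306, adjusted p = 0.00204). F40D4.13 (V 17155874 to 17157254) stood at 1.2 and 1.17 CPM in wild-type and 19.8 and 21.9 in the double mutant, with 0.863 and 0.497 in cec-4. Its gap over cec-4, at 4.91 on the log2 scale (SE 0.357), was at least as wide as that over wild-type, at 4.1 (adjusted p = 0.00179 and 0.00265). Y49E10.25 had 3 and 2 counts in wild-type and 44 and 46 in the double mutant, and ZC190.10 went from 9 and 5 counts to 66 and 93, with 2 and 2 in cec-4. Of the other genes among the 20 of largest fold change, F35F11.2, K02H11.9, Y37H2A.10, Y54F10BM.3 and the unplaced WBGene00013630 lay between 0.0239 and 0.219 CPM in wild-type and between 0.729 and 3.51 CPM in the mutant. Y105C5B.20 went from 3.02 and 1.48 to 24.8 and 21.3 CPM. The gene rnh-1.1, which encodes a ribonuclease H, is named after its values were seen, since it stayed under 1 CPM. It had 0 and 0 counts in wild-type and 15 and 17 in the double mutant, with 2 and 3 in cec-4. The mutant level was at least 6.66-fold higher against a floor of 3 counts per wild-type library.

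**Figure D3:**
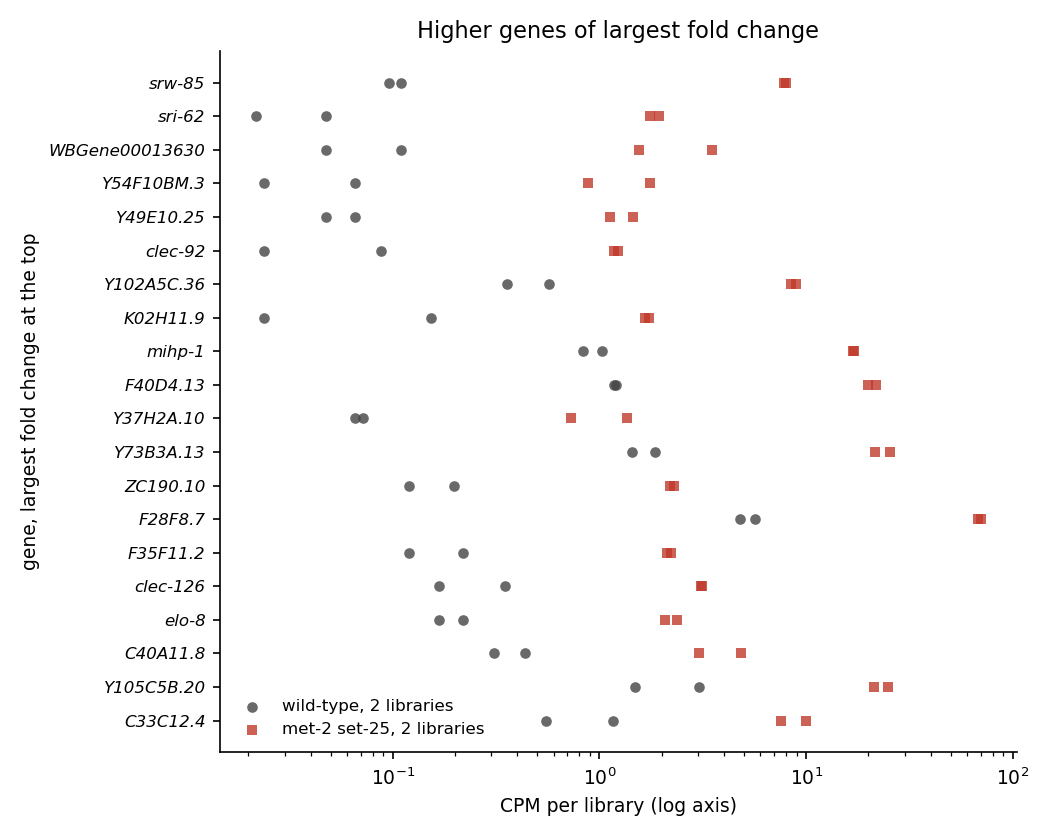
CPM in each library, on a log axis, for the 20 higher genes of largest fold change among those with at least 1 CPM in met-2 set-25; circles are the 2 wild-type libraries and squares the 2 met-2 set-25 libraries. The rule that chose these genes requires both squares to lie to the right of both circles. Most wild-type values lie below 1 CPM.

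A smaller group of higher genes already had more RNA in wild-type embryos and gained most in absolute terms. E01G4.5 (II 13472401 to 13473995), a known target of endogenous small RNAs, rose from 36.9 and 45 CPM to 211 and 234, the largest gain in CPM of the 92 genes (log2 fold change 2.44, SE 0.190, adjusted p = 0.00204). In the cec-4 libraries it stood at 41.9 and 36.3 CPM, close to wild-type. The pseudogene F39E9.7 rose from 39.7 and 41.2 CPM to 146 and 149. WBGene00016553 (II 2136552 to 2137329), a spliced locus of 216 bp deposited width that the annotation types as miRNA, rose from 22.4 and 15.4 CPM to 97.9 and 119.1. These counts are of the locus and say nothing of a mature miRNA. F55C9.3 rose from 12.6 and 9.69 CPM to 69.4 and 90.5, and F28F8.7 from 5.67 and 4.77 to 69.8 and 68.2. For these 2 the wild-type and mutant ranges lay far apart, with log2 fold changes of 2.84 and 3.72 (SE 0.242 and 0.246, adjusted p = 0.00312 and 0.00204). The homeobox gene ceh-91, which encodes a predicted transcription factor, went from 49.4 and 45.1 CPM to 122 and 113, a rise of 1.31 on the log2 scale. Of the other genes with high wild-type levels, CD4.8, lido-7, Y54F10BM.9 and the pseudogene Y105C5A.14 stood between 22.8 and 57.6 CPM in wild-type and between 75.7 and 131 CPM in the mutant. At the low end of this group, lido-13 rose from 38 and 40.5 to 79.7 and 91.2 CPM, the smallest log2 fold change of the 92 at 1.12 (SE 0.179, adjusted p = 0.0366). Its call was lost with each of the 6 libraries left out and with the 2 genotypes fitted alone, and the pseudogenes W05H12.2 and W06A11.4 and the gene bath-3 also had no call in any fit that left out a library.

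Genes of the H3K9 methylation and heterochromatin machinery were read next, as the pathway the deletions belong to. Of 29 listed members tested, 1 rose and 2 fell, and the median log2 fold change was 0.01 against -0.03 over all genes. The 2 were the deleted genes. The member that rose was set-11, which encodes a SET domain protein of the same enzyme class by sequence, from 0.0657 and 0.0716 CPM to 0.662 and 1.08. These were 3 and 3 counts in wild-type and 20 and 44 in the mutant (log2 fold change 3.62, SE 0.581, adjusted p = 0.0368), and the call was lost without either wild-type or either mutant library. The heterochromatin protein genes hpl-1 and hpl-2 had log2 fold changes of -0.14 and 0.07, with SEs of 0.209 and 0.194. Those of cec-4, cec-3, lin-61 and arle-14, which encode other readers and cofactors of the mark, were 0.12, 0.04, 0.08 and 0.01, with SEs between 0.170 and 0.212. Among other chromodomain genes, cec-1, cec-2, cec-5, cec-6 and cec-8 had values from -0.33 to 0.08, as did mrg-1. The gene lin-65, whose product acts with MET-2, had 0.05. The SET domain gene set-32, which acts with nuclear small RNAs, had a log2 fold change of 0.08 (SE 0.293). Those of set-13, set-15 and set-23, also SET domain genes, were 0.30, -0.20 and -0.10 (SE 0.233, 0.163 and 0.256). The genes mes-2, mes-3 and mes-6, whose products methylate lysine 27 of histone H3 instead, had 0.14, -0.12 and 0.05. The demethylase gene jmjd-2 had one of -0.18 (SE 0.219) and jmjd-1.2 one of -0.07 (SE 0.159), and lsd-1, spr-5 and amx-1, of the LSD1 demethylase family, had 0.09, 0.02 and 0.00803. None of these members passed, and the sign of 17 of them turned under at least 1 alternative. The zinc finger gene lin-13, a synMuv B gene whose product acts with HPL-2, stood at 676 and 577 CPM in wild-type and 1144 and 1026 in the double mutant, with 722 and 850 in cec-4. Both mutant values lay above the other 4, but the log2 fold change of 0.79 did not pass (SE 0.175, adjusted p = 0.129). It passed with no low-count filter and with limma on the deposited log2 values.

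Lists of other nuclear pathways held few calls or none. With 0.659% of all genes higher, such counts are usual for lists of this size and do not set these pathways apart. Among 30 nuclear RNAi and Argonaute genes 0 passed edgeR, the median log2 fold change was -0.03 with values from -0.53 to 0.47, and at an unadjusted p under 0.05 the count was also 0. DNA damage and repair genes had 0 calls among 40 (median -0.04, 0 at an unadjusted p under 0.05), and nuclear lamina and pore genes 0 among 30 (median 0.03, likewise 0). Of 19 synMuv B repressors only met-2 was called. In the piRNA pathway, 1 of 14 factors rose, beside 0.659% of all genes. This was prde-1, which is needed for transcription of piRNA precursors, at 10.9 and 8.33 CPM in wild-type and 34.1 and 25.3 in the mutant, with 9.67 and 9.91 in cec-4 (log2 fold change 1.63, SE 0.263, adjusted p = 0.0378). The mutant values lay above the other 4 libraries, and glb-14 lies across prde-1 on the opposite strand in the annotation.

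A few members of large gene families of worm-specific expansion were among the higher genes. F-box genes, whose products are predicted adaptors of ubiquitin ligases, had a median log2 fold change of 0.22 over 238 tested members, with 2 that rose, fbxa-136 and fbxa-114, and 182 above 0. MATH and BTB domain genes, another adaptor family, had a median of 0.30 over 65 members, with 2 that rose. Among 87 members of the C-type lectin family the median was 0.17 and 3 rose. For comparison, all genes had a median of -0.03 and 0.659% called, and the share of F-box genes, 0.840%, was close to that. Genes at low levels also had positive medians, 0.19 under 0.5 CPM and 0.10 at 0.5 to 1 CPM. The part of level in the family medians was not tested. The adaptor gene bath-19 went from 0.503 and 0.621 CPM to 3.78 and 2.92, and fbxa-136 from 0.897 and 1.12 to 4.64 and 6.44. At a higher level, fbxa-114 went from 15.7 and 11.3 CPM to 38.2 and 39.0. The lectin genes clec-92, clec-126 and clec-73 had 0.0239 to 0.350 CPM in wild-type and 0.811 to 3.15 CPM in the mutant. Chemoreceptor genes had a median of 0.12 over 190 tested members of 1294 listed, since most were too low to test, with srw-85, sri-62 and sre-50 higher. Nuclear hormone receptor genes, also a large family, had a median of -0.10 over 207 members with 0 calls by edgeR and 3 at an unadjusted p under 0.05. In that list 29.5% of members were above 0. With the replicate block, under which 1.31% of all genes rose, the counts were 9 F-box genes, 6 MATH and BTB genes and 5 chemoreceptor genes, and those of lectins and nuclear hormone receptors stayed at 3 and 0.

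Spermatogenesis genes were present at low levels, and most of those tested lay above 0. Over 25 tested members of 110 listed the median log2 fold change was 0.41, with 17 above 0 and 2 that rose. Over all genes 45.9% were above 0 and 0.659% rose. With the replicate block 4 rose, spe-11 and spe-15 being added. One of the 2 genes, spe-6, encodes a casein kinase family protein required for sperm meiosis, and went from 3.59 and 3.15 CPM to 13.8 and 11.5. The other, nspd-7, went from 4 and 5 counts to 31 and 36. Neither gene lay higher in cec-4, where spe-6 stood at 3.27 and 2.72 CPM and nspd-7 at 4 and 4 counts. Summed sperm markers, of which 27 to 30 of 35 were at 0 in each library, were 1.40 and 2.24 CPM in wild-type. They stood at 3.64 and 2.14 CPM in the double mutant, and the cec-4 cultures had 1.79 and 1.99. The genotypes thus overlapped, and a part of male or sperm RNA in these values was not tested.

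Genes of signalling and metabolism were also among those that rose. The gene sma-4 encodes a Smad protein of the TGF-beta pathway that sets body size, and went from 10.7 and 10.2 CPM to 46 and 50.7 (log2 fold change 2.21, SE 0.223, adjusted p = 0.00605). In cec-4 it stood at 10.7 and 8.97 CPM, level with wild-type. The ABC transporter gene abt-5 went from 8.73 and 7.06 CPM to 51.4 and 48.1. It was the only 1 of 42 tested transporter genes to pass, beside 0.659% of all genes higher, in a list with a median of -0.07. The phosphodiesterase gene pde-1 went from 1.47 and 1.93 CPM to 9.87 and 9.46. The glutathione transferase gene gstk-1 went from 22 and 21.6 CPM to 55.8 and 61.7, while 84 listed transferase genes of other classes had 0 calls by edgeR and 5 at an unadjusted p under 0.05, and ugt-64 alone passed with the replicate block. The acyltransferase family gene oac-49 went from 0.766 and 0.716 CPM to 6.43 and 5.51, the single call among 26. The fatty acid elongase family gene elo-8 rose from 0.219 and 0.167 CPM to 2.39 and 2.06. The sterol reductase homologue dhcr-7 rose from 0.482 and 0.621 CPM to 4.04 and 3.00, and the neuropeptide receptor gene npr-8 rose from 0.503 and 0.811 to 3.31 and 3.81 CPM. The genes sma-4, pde-1, gstk-1, elo-8, dhcr-7 and npr-8 fall outside the naming rule and were chosen after their values were seen.

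The enu-3 family rose nearly as a whole, and was likewise picked after its values were seen. Its genes lie on chromosomes I and III, and the protein family is known from neuronal outgrowth. The family member enu-3.2 (III 4783194 to 4785235) went from 2.52 and 2.24 CPM to 19.3 and 16.5, with 3.13 and 3.30 in cec-4. Similar differences were seen for enu-3.3, from 1.93 and 1.62 to 12.1 and 9.98 CPM, and for enu-3.5, from 1.40 and 1.53 to 10.8 and 7.79 CPM. The member enu-3.6 went from 1.07 and 1.26 to 6.72 and 6.29 CPM, and the pseudogene W05F2.2, which RefSeq names enu-3.4, from 0.941 and 0.907 to 4.80 and 4.42 CPM. The log2 fold changes of these 5 lay between 2.31 and 2.91, with adjusted p between 0.00466 and 0.0219. The 1 other member, enu-3.1, had a log2 fold change of 1.29 that did not pass (SE 0.445, adjusted p = 0.553). The counting of reads shared between near copies was not given in the sources used here, and increases within the family may not be separate.

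Most of the higher genes lay in the autosomal arms. With each chromosome divided into 3 parts of equal length, 72 of 6794 tested genes (1.06%) in the outer parts of autosomes rose, against 8 of 4745 (0.169%) in the middle parts. On the X chromosome 4 of 2006 (0.199%) rose, 3 in the left outer part and npr-8 in the middle. The right arm of V held 18 of 703 (2.56%) and the left arm of II 16 of 812 (1.97%). By contrast the left arm of V held 2 of 765 (0.261%), a share close to those of the centres. Among genes of under 10 CPM over the 6 libraries the shares were 1.63% in autosomal arms and 0.285% in centres, and among genes of 10 CPM or more they were 0.589% and 0.10%. The share in arms was thus the greater one at both levels. Median log2 fold changes were 0.02 in autosomal arms, -0.05 in autosomal centres and -0.12 on X. The X chromosome took 9.88% and 11.9% of gene counts in wild-type and 9.85% and 10.5% in the double mutant, with 10.2% and 11.2% in cec-4, so the wild-type cultures differed from each other by more than the genotypes did. With the replicate block the genes numbered 137 in autosomal arms (2.02%), 19 in centres (0.400%) and 12 on X (0.598%). Windows, counted without gene models but from the same libraries, showed the same division. There 420 of 56485 were higher (0.744%) in autosomal arms, 36 of 33407 (0.108%) in centres and 26 on X (0.144%). Of the 482 higher windows, at least 224 lay within 500 bp of a higher gene, so they partly repeat the gene result. With the block the windows numbered 666, 80 and 56.

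**Figure D4:**
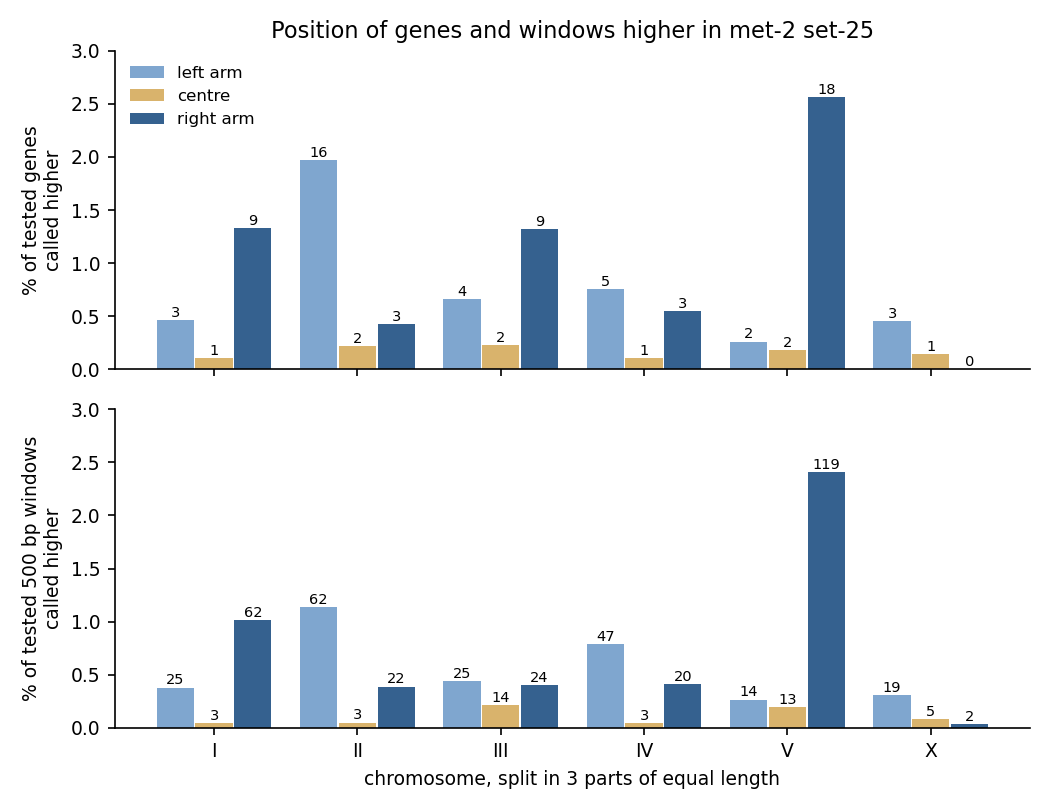
Percentage of tested genes (top) and of tested 500 bp windows (bottom) called higher in met-2 set-25, for the left outer, middle and right outer part of each chromosome, with the number called above each bar. The right arm of V reaches 2.56% of genes and 2.41% of windows, and the middle parts stay at or below 0.228% of genes.

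The share called was larger for pseudogenes than for protein coding genes. Of 275 tested pseudogenes 11 rose (4%), against 72 of 13264 protein coding genes (0.543%). With the replicate block these were 14 and 153. In autosomal arms the shares were 8 of 184 (4.35%) and 63 of 6606 (0.954%). The share called also varied with level, and the parts of level and of reads shared between similar genes were not tested. On X, 3 of 35 pseudogenes of the outer parts rose and 0 of 1260 protein coding genes there. The 3 were Y73B3A.13, F31A9.4 and F52D2.8. Y73B3A.13 (X 131022 to 132691) stood at 1.86 and 1.43 CPM in wild-type and 21.5 and 25.3 in met-2 set-25 (log2 fold change 3.83, SE 0.295, adjusted p = 0.00204). A further 8 higher genes have identifiers with no position in the annotation used, of 406 such genes tested.

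Some higher genes were near neighbours. Linking each higher gene to the next where their starts lay within 20 kb, 21 of the 84 higher genes with a position formed 10 clusters. How often other tested genes of the same arms lie so close was not counted. One on II held WBGene00016553, C40A11.8 and C33C12.4 within 29.1 kb, where C40A11.8 went from 0.438 and 0.310 to 4.84 and 3.05 CPM and C33C12.4 from 1.16 and 0.549 to 9.94 and 7.59. On the same arm set-11 and sri-62 had starts 5.90 kb apart, and bath-3 and bath-19 had starts 8.92 kb apart. Pairs of start sites on V were Y102A5C.2 with Y102A5C.36, fbxa-136 with C18D4.6, and F55C9.3 with F55C9.5. In the last pair F55C9.5 went from 6.61 and 4.53 to 26.2 and 35.3 CPM, beside the 7.17-fold change of F55C9.3. The homeobox gene ceh-91 paired with Y66A7A.4, mihp-1 with the pseudogene W05H12.2, F52C6.4 with F52C6.14, and Y54G2A.36 with the pseudogene Y54G2A.21.

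Genes near a higher gene that were not called themselves also tended to lie above 0. Of 32 such genes with a start within 2 kb of the start of a higher gene, 27 had a positive log2 fold change, with a median of 0.37, and 12 were higher at an unadjusted p under 0.05. At 2 to 5 kb the median was 0.28, with 53 of 71 positive. It was 0.12 at 5 to 10 kb and 0.04 at 20 to 50 kb, and beyond 100 kb or on other chromosomes it was -0.03, with 44.4% of 11912 genes positive. Within autosomal arms alone the medians were 0.37, 0.32 and 0.17 over the 3 nearest distances and 0.01 for the 5559 arm genes farther away. Leaving out genes that overlap the higher gene gave 0.36 at 0 to 2 kb, over 31 genes. Nearby genes had lower wild-type levels, with a median of 5.11 CPM within 2 kb against 19.8 farther away. The parts of level and of reads shared between neighbours in this gradient were not tested.

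**Figure D5:**
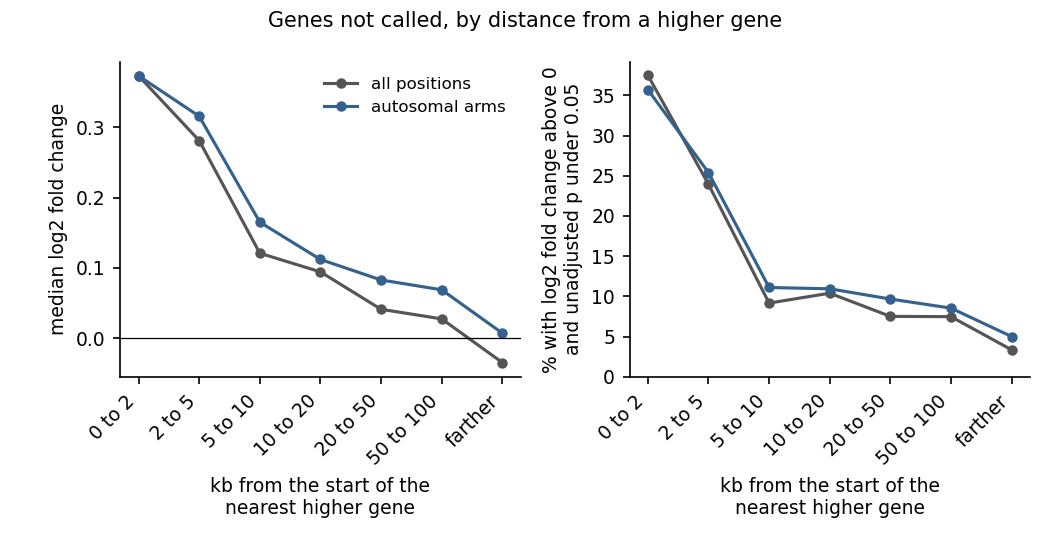
Median log2 fold change (left) and percentage of genes higher at an unadjusted p under 0.05 (right) among genes not called, by distance in kb between their start and the start of the nearest higher gene, over all positions (grey) and in autosomal arms (blue). Both measures are greatest within 2 kb and fall toward the values of genes farther away.

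Windows extended the view to RNA outside the genes with a position. Of 108036 tested windows, 482 were higher (0.446%) and 26 lower (0.0241%), with 3253 and 1847 at an unadjusted p under 0.05. The replicate block gave 802 higher (0.742%) and 50 lower (0.0463%). The higher windows covered 241000 bp in 260 runs of adjoining windows, of which 152 were single windows. Without met-2 set-25 replicate 1 the higher windows numbered 224 and without replicate 2 they numbered 158. The lower windows numbered 11 without met-2 set-25 replicate 2, 118 without wild-type replicate 1 and 77 without wild-type replicate 2. No build is named for the windows, but read counts of windows and genes lined up on WBcel235 within 500 bp, with a correlation of at least 0.8, in 99 of 101 stretches of a megabase. The other 2 were at the right end of V, where 1 had a best shift of -4600 bp and 1 no shift but a correlation of 0.659. There 16 runs were left without a place. Of the other 244 runs, 103 lay within 500 bp of a higher gene, and these held 224 of only 470 tested windows in such places. A further 81 runs were placed near a tested gene that was not called higher, with 121 of 91969 windows. Placement used only protein coding genes and pseudogenes with a position. The run at II 2136501 to 2137500, on the higher locus WBGene00016553, was therefore counted among the 81. The 8 higher genes with no position could not be matched to runs. Runs near a gene with too few counts to test or outside the table numbered 32, and 28 runs with 64 of 9988 windows lay over 500 bp from any protein coding gene or pseudogene.

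Some of the widest increases were in stretches without a coding gene placed in the annotation. Of the tested genes, 406 had no position, 8 of them higher, and whether any lies in these stretches was not tested. On the right arm of V, the 8 windows from 17140501 to 17144500 held 20 and 21 counts in wild-type and 334 and 311 in the double mutant, with 15 and 27 in cec-4, a 21.2-fold difference in CPM. The 5 windows just before them, from 17137501 to 17140000, held 3 and 7 counts in wild-type and 169 and 129 in the mutant, 40.3-fold more, with 9 and 9 in cec-4. Both runs were near empty in all 4 other libraries, and F40D4.13, described above, lies on the same arm beyond them. On X, near the left end, the 3 windows from 123501 to 125000 went from 8 and 8 counts to 155 and 244, 32.4-fold, before the start of the pseudogene Y73B3A.13. On V, the 6 windows from 8481001 to 8484000 went from 16 and 22 counts to 209 and 223, with 47 and 53 in cec-4. Here the cec-4 libraries lay between the others. Runs at I 13932501 to 13935500 and V 14201001 to 14204000 started from more reads, 245 and 174, and 409 and 288, in wild-type, and rose 5.78-fold and 5.45-fold. The longest run of all had 11 windows at IV 2903501 to 2909000, inside the pseudogene Y54G2A.21, and went from 615 and 445 to 2426 and 2865 counts. Within abt-5, 8 windows from I 12013001 to 12017000 went from 269 and 212 to 1108 and 1410 counts. A run of 8 windows at IV 3313501 to 3317500, near zip-11, which encodes a bZIP factor and was not itself called, went from 425 and 253 to 1099 and 1393 counts.

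Decreases were few and centred on a handful of loci. Besides the deleted genes, T08B2.11 (I 6221245 to 6223115) went from 9.43 and 9.31 CPM in wild-type, with 9.19 and 8.39 in cec-4, to 1.99 and 2.31 in met-2 set-25 (log2 fold change -2.12, SE 0.272, adjusted p = 0.0198). R11A8.1 (IV 10355046 to 10357172) went from 6.68 and 4.20 CPM to 1.46 and 1.18 (-2.05, SE 0.344, adjusted p = 0.0446), with Y43C5B.3 across it on the opposite strand. For both genes all 4 libraries with the methyltransferases lay above the mutant ones. The R11A8.1 call was lost with limma voom, upper quartile scaling, a minimum of 1 CPM, a fit of the 2 genotypes alone, and in fits that left out wild-type replicate 1 or a mutant library, and that of T08B2.11 without either mutant library. The 9 runs of lower windows lay in these 4 genes, in acdh-2 and in C50E3.12. The acyl-CoA dehydrogenase gene acdh-2 stood at 241 and 131 CPM in wild-type and 52.5 and 57.9 in the double mutant, with 128 and 83.3 in cec-4. As a gene it did not pass (log2 fold change -1.75, SE 0.314, adjusted p = 0.0597), but it did with the replicate block (-1.67, adjusted p = 0.0167). Its wild-type replicates lay farther apart than the mutant and the lower wild-type value. C50E3.12 stood at 22.5 and 7.45 CPM in wild-type and at 2.22 and 1.89 in the mutant, which did not pass as a gene either (-2.87, SE 0.502, adjusted p = 0.0546) but did with the block (-2.71, adjusted p = 0.0113), and 3 of its windows were called.

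Set beside the strain that lacks only the anchor CEC-4, most of the 92 genes stood near wild-type. The median log2 fold change of the 92 was 0.05 for cec-4 over wild-type and 2.51 for met-2 set-25 over wild-type, comparisons that share the wild-type libraries. The 92 were chosen by the second comparison, so its high median follows from the choice. Besides srw-85, the pseudogene W06A11.4, named here for its level in cec-4, had higher values in both strains, at 3.7 and 3.05 CPM in wild-type, against 9.58 and 7.51 for cec-4 and 11.2 and 10.1 for the double mutant. Met-2 set-25 and cec-4 differed for this gene by 0.31 on the log2 scale, which did not pass (SE 0.272, adjusted p = 0.756), and neither did cec-4 over wild-type, at 1.34 (SE 0.279, adjusted p = 0.9998). The call of this gene in met-2 set-25 was lost in every fit that left out a library. For srw-85 the same difference was 0.69 (SE 0.336, adjusted p = 0.531). E01G4.5, by contrast, exceeded its cec-4 level in the double mutant by 2.51 on the log2 scale, and F28F8.7 by 3.33 (SE 0.190 and 0.242, adjusted p = 0.00201 and 0.00179).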

How the data were processed

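RNA from early embryos was sequenced after ribosomal RNA depletion (Ribo-Zero, ScriptSeq v2 libraries, 51 cycles on a HiSeq 2500, per the labels' protocols). The authors deposited raw read counts per gene and per 500 bp window, log2 values of the scaled gene counts with a pseudocount of 8, and gene widths in bp, which 96.6% of the time are multiples of 3, as coding lengths are. The aligner, genome build, strand use and handling of ambiguous reads were not given in the sources used here. Testing used edgeR 4.0.16 under R 4.3.3 (filterByExpr by genotype, TMM, quasi-likelihood test, all 6 libraries in the fit with genotype as the term, Benjamini-Hochberg adjustment over all features, threshold 0.05) on the counts. The scripts were tested on simulated data. The SE is the ratio of the log2 fold change to the root of the F statistic. CPM values use TMM-adjusted totals. Deviations of same-numbered libraries from their genotype means correlated over genes with r = 0.53 between wild-type and cec-4, 0.30 between wild-type and met-2 set-25 and 0.19 between cec-4 and met-2 set-25. All exceeded 0.1, so the numbers were taken to pair the cultures, from the data and not from the labels, and values with the replicate number as a block are given where they change a call or move a count by over 1.5 times. The biological coefficient of variation was 21.7%, and replicates differed by more than sampling noise. Genes were matched by identifier to WBcel235, which placed 19513 of 20182. Exon numbers count distinct exons over all isoforms. Genes said to lie across another exclude short noncoding RNAs. Positions were described without tests, and no sequence was used here.

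Genes were named by rule: the deleted genes; the 20 higher genes of largest fold change with at least 1 CPM and no overlap between libraries, and all lower genes; the 10 called genes of largest CPM difference and the 10 of highest wild-type level; called neighbours within 20 kb; called list members; all H3K9 list members; and the leading window runs. Members and lists were chosen with earlier results of these data known. Alternatives were other scalings and filters, DESeq2 1.42.0, limma 3.58.1 (voom, or the deposited log2 values), the 2 genotypes alone, a threshold of 0.01, a replicate block, and each library left out. With 1 library left in a genotype, that library is assumed to vary like the others. Counting floors of 3 counts per library cover counting error only.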

Additional observations from a re-analysis of the deposited data

How the results depend on the processing

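The main counts were 92 higher and 4 lower genes and 482 higher and 26 lower windows. DESeq2 gave 183 and 13 genes, no low-count filter 193 and 10, and limma on the deposited log2 values 130 and 7, and each of these included all 92 and all 4. An adjusted p under 0.01 left 14 and 2 genes and 216 and 17 windows, and scaling factors of the gene table left 290 higher windows. A replicate block gave 183 and 8 genes and 802 and 50 windows, again including all reported calls. Among the named genes the block changed the call of acdh-2 and C50E3.12 only. With each library left out in turn, higher genes numbered 9 to 101, lower genes 1 to 15, higher windows 158 to 702 and lower windows 11 to 118. Of the 92 genes, 51 were called without wild-type replicate 1 and 55 without replicate 2. Other scalings, 1 CPM in 2 libraries, limma voom and the 2 genotypes alone gave 87 to 103 higher and 3 to 5 lower genes. Of 84 named genes with alternatives, the 55 called ones kept the sign of their log2 fold change throughout, and 17 uncalled ones of the H3K9 list, all within 0.33 of 0 as reported, changed it. With each library left out, their values ranged from -0.14 to 0.18 for arle-14, -0.036 to 0.15 for mes-6, -0.22 to 0.49 for set-32, -0.16 to 0.011 for jmjd-1.2, -0.22 to 0.19 for cec-5, -0.085 to 0.22 for hpl-2, -0.049 to 0.25 for lin-61, -0.10 to 0.14 for amx-1, -0.13 to 0.26 for cec-3, -0.30 to 0.11 for cec-6, -0.20 to 0.24 for mrg-1, -0.061 to 0.10 for spr-5, -0.30 to 0.16 for set-23, -0.43 to 0.043 for jmjd-2, -0.27 to 0.36 for cec-8, -0.12 to 0.27 for lin-65 and -0.62 to 0.039 for cec-1. DESeq2 and its scaling gave -0.0103 and -0.0102 for arle-14 and -0.0082 in both cases for amx-1. For cec-5 limma on the deposited values, 1 CPM in 2 libraries, no filter and upper quartile scaling gave 0.034, 0.012, 0.0027 and 0.020. For mrg-1 the first 2, upper quartile scaling, limma voom and the block gave 0.057, 0.0086, 0.023, 0.0094 and 0.0096. With 2 cultures per genotype, genes of a few reads and small changes are hard to detect, so genes not called are not shown to be unchanged, and the causes of the differences between settings were not tested.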

Other observations

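Stage-linked lists held no calls, also with the replicate block, where 0.659% of all genes were higher without the block and 1.31% with it. Over 28 tested maternal early embryo genes the median log2 fold change was -0.20, with 6 above 0, and over 31 early zygotic genes it was 0.03, with 17 above 0. At an unadjusted p under 0.05 these lists held 1 and 0 genes. For cec-4, which shares the wild-type libraries, the medians were 0.19 and -0.00435. Heat shock genes had a median of -0.13, with 8 of 46 above 0, and ribosomal protein genes one of -0.02, with 32 of 75 above 0; both held 0 edgeR calls and 1 gene each at an unadjusted p under 0.05. Genes of differentiated tissues differed in direction. Neuropeptide and insulin-like genes had a median of 0.25 over 61 members and cuticle collagens one of 0.12 over 75, with 4 and 13 genes at an unadjusted p under 0.05 and 0 calls. With the replicate block the collagens col-45, col-74 and col-165 were higher and hsp-70 lower. By contrast body muscle and neuron markers had medians of -0.35 and -0.33 over 8 members each. Epidermis and intestine markers had medians of -0.28 and -0.08 over 7 each. Pharynx markers had one of 0.26 over 6, and germline P granule markers one of 0.06 over 7. None of these marker lists held a call. Summed body muscle markers stood at 1057 and 1924 CPM in wild-type, and the mutant values of 1078 and 1299.7 lay between them.

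Among lido genes, a family picked after its values were seen, lido-7 and lido-13 rose on the left arm of II. The first went from 57.6 and 43 CPM in wild-type to 131 and 109.9 in the mutant, and the other from 38 and 40.5 to 79.7 and 91.2. Over all genes 0.659% were higher, and the share of the family is not given here. The call of lido-13 was lost with the 2 genotypes fitted alone. The next largest log2 fold changes in the family were those of lido-18 (0.74), lido-10 (0.61) and lido-8 (0.54), which did not pass (edgeR adjusted p = 0.607, 0.656 and 0.695).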
